A study of Arabidopsis thaliana with 18 samples.

Results

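A group of 49 probe sets had lower group means under phosphate limitation than under control in both genotypes. Their group means under methyl viologen stayed above a set limit relative to control. In the limma fit described below, 41 were called lower under phosphate limitation in both genotypes, 1 in *pad2-1* only and 7 in neither. A probe set is the group of short oligonucleotides with which the array measures 1 transcript. The members were chosen from the group means of the log2 values: P-lim minus control was -0.6 or lower in WT and in *pad2-1*, and MV minus control was above -0.4 in both. They are 49 of 22746 probe sets. A fall of 0.6 or more under P-lim in both genotypes was shown by 140 probe sets, and 52 of these kept both MV differences above -0.4. The rule leaves out the iron genes AT5G04150 (*BHLH101*), AT3G47640 (*PYE*) and AT1G47400 by name, of which the last pair were among the 52, and 1 further probe set for an excess of 0.8 or more in *pad2-1* under control. Because these values chose the members, the P-lim, MV and control-condition differences below are descriptions and support nothing by themselves. A named gene stood behind 25 members, and 24 had no gene name here.

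The arrays (Affymetrix ATH1) measured the aerial parts of 18-day-old Arabidopsis seedlings of the Col-0 ecotype (WT) and of *pad2-1*, a mutant of *GSH1*, which encodes the first enzyme of glutathione synthesis. Each genotype was grown on Murashige and Skoog medium (control), on that medium with methyl viologen (MV, a herbicide that feeds electrons from photosystem I to oxygen), or on P-lim medium with 20% of the phosphate of the control. There were 3 arrays per group in 6 groups, 18 arrays in all, and each array took 1 biological replicate. In the labels the MV concentration is 0.05 M and in the methods 0.05 µM. For stressed WT plants the description field speaks of normal medium, so groups follow the titles. *pad2-1* is a single mutant line, and whole shoots mix all aerial cell types.

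Iron-starved plants switch on a set of regulators of the bHLH family and many small or uncharacterised proteins, and shut these genes down again when iron is ample. Iron and phosphate are linked in plants, since phosphate binds iron in the medium and in tissue. Of the iron genes, the rule leaves out *BHLH101*, *PYE* and AT1G47400 by name. The 1 member found on the iron deficiency list was AT5G05250. Other members include enzymes and proteins of the cuticle and cell wall. Several more are proteins known from the tapetum, the nursing layer of the anther that feeds developing pollen.

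Arrays of a group correlated at 0.9964 to 0.9984 over all probe sets. RCA, which activates Rubisco in leaves, lay at 13.16 to 13.29 on every array. This was the 1 measured gene of 15 leaf markers. The root hair markers *EXPA7*, *EXPA18* and AT3G49960 had group means of 2.93 to 4.35, near or below the lower quartile of the arrays (3.8 to 3.91), and the summed level of the 5 measured root markers of 11 ranged from 23.63 to 24.74 under control, from 24.36 to 25.1 under MV and from 24.38 to 25.41 under P-lim. Of these 5 the root and hypocotyl glucosidase *PYK10* was the brightest, at group means of 8.6 to 9.49. None of 10 flower and pollen markers and none of 25 phosphate starvation genes on the lists had a named probe set here. This is a gap in the gene names used here. From the same arrays the paper reports *SPX1*, *PS2* and *PS3* among the genes induced by P-lim. In whole shoots, fewer cells of a type and less RNA per cell cannot be told apart.

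**Figure D1:**
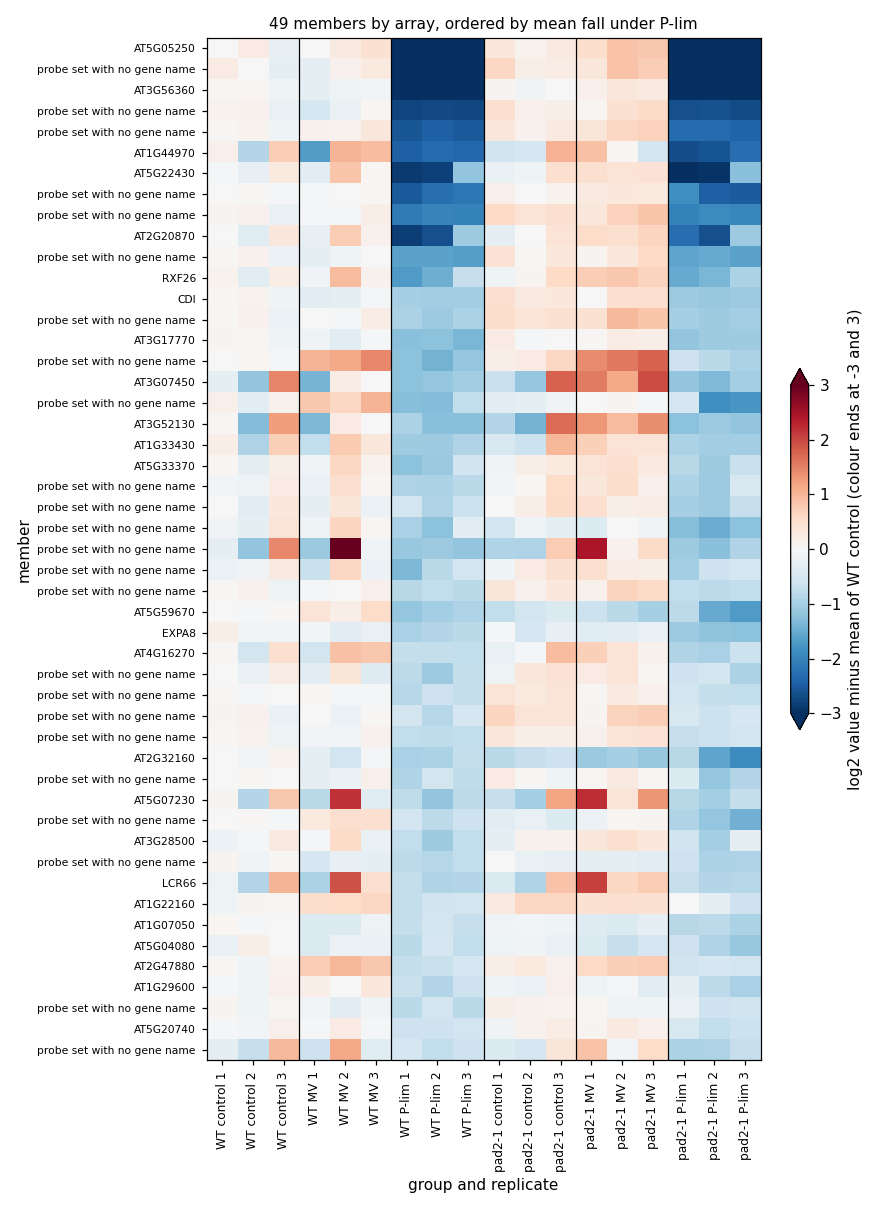
Each row is a member, ordered by its mean fall under P-lim over both genotypes, and each column is an array. Colour gives the log2 value minus the mean of the 3 WT control arrays, ending at -3 and 3. The 6 P-lim arrays are blue in nearly every row, and single control and MV arrays stand out in rows such as AT3G07450, AT5G07230 and *LCR66*.

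In the fit across all probe sets, 41 of the 49 members were called lower under P-lim in WT (limma, adjusted p under 0.05), where 4.28% of all probe sets were called lower and 4.92% higher, and 42 in *pad2-1*, where 5.23% were lower and 6.58% higher. The rule fixed this outcome, so nothing is read from it. The median log2 change was -0.91 in WT and -1.01 in *pad2-1*, and the median over all probe sets was 0.01 and 0.02. The mean fall over both genotypes was 2 or more for 10 members, between 1 and 2 for 9 and under 1 for 30. At the limit itself, AT5G20740 stood just inside with -0.612 in WT and -0.707 in *pad2-1*, AT1G22160 with -0.614 and -0.816 and an unnamed member with -0.72 and -0.613. The 3 unnamed probe sets just outside had -0.598 and -0.824, -0.59 and -0.608, and -0.67 and -0.584.

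AT5G05250, an uncharacterised gene on the iron deficiency list, fell the furthest of the members. Its log2 values were 9.56, 9.78 and 9.29 in WT control and 9.52, 9.81 and 9.99 in WT under MV. Under P-lim they were 4.81, 4.45 and 4.78. In *pad2-1* they were 9.86, 9.65 and 9.82 under control, 10.06, 10.4 and 10.34 under MV and 5.2, 4.47 and 4.83 under P-lim. No P-lim array came within 4 log2 units of a control or MV array. The change was -4.86 ± 0.16 (SE, n = 3 against 3) in WT and -4.94 ± 0.16 in *pad2-1*, which are 29.1-fold and 30.7-fold lower levels.

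AT3G56360, another gene of unknown function, had the same step at a higher floor. WT control arrays read 10.43, 10.47 and 10.28, WT MV arrays 10.12, 10.24 and 10.32, and WT P-lim arrays 6.46, 6.85 and 7.04. The *pad2-1* arrays read 10.49, 10.3 and 10.42 under control, 10.56, 10.74 and 10.66 under MV and 7.35, 6.52 and 6.71 under P-lim. The groups were again fully apart. The change was -3.61 ± 0.16 in WT (12.2-fold lower) and -3.54 ± 0.16 in *pad2-1* (11.7-fold lower).

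Of the 10 members with a mean fall of 2 or more, 5 had no gene name. Their mean falls ran from -2.26 to -3.87. Their group means lay between 8.86 and 11.22 under control and MV and between 5.1 and 8.48 under P-lim, so these too went from bright to clearly dimmer signals.

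The 3 iron genes that the rule leaves out fell with them. *BHLH101*, a transcription factor of the iron deficiency response, went from 7.22, 7 and 6.59 in WT control to 3.31, 3.14 and 3.2 under P-lim. *PYE*, a bHLH regulator of iron homeostasis, went from 7.58, 7.45 and 7.3 to 5.47, 5.29 and 5.35. AT1G47400, which encodes a small peptide of the iron deficiency response, went from 9.29, 8.99 and 8.82 to 3.37, 3.15 and 3.09. Their changes were -3.72 ± 0.19, -2.07 ± 0.12 and -5.83 ± 0.21 in WT, and -4.14 ± 0.19, -2.17 ± 0.12 and -6.85 ± 0.21 in *pad2-1*. *BHLH101* would not have met the MV limit in any case, at -0.70 under MV in WT. AT1G47400 would have been left out for its excess in *pad2-1* under control, at 0.94 where the limit is 0.8.

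Of the 30 genes on the iron deficiency list, 7 had a named probe set. In WT 4 were called lower under P-lim (the 3 above and AT5G05250) and 1 higher, and in *pad2-1* 5 were lower and 1 higher. The list was chosen with earlier results of these data known and is no independent evidence of a direction. The fifth gene in *pad2-1* was AT1G74770, which encodes an E3 ligase related to BRUTUS, a regulator of the iron response, at -0.75 ± 0.13 there and -0.28 ± 0.13 in WT. AT3G07720, a kelch repeat protein, was the 1 that rose, by 0.56 ± 0.072 in WT and 0.32 ± 0.072 in *pad2-1*. AT3G12900, the scopoletin hydroxylase S8H, did not pass, at 0.08 ± 0.063 and 0.09 ± 0.063. Leaving out the dimmer 50% of probe sets also removes dim list genes such as AT1G74770, with a mean of 4.51 over all arrays. Of the list genes still fitted, 3 were lower in *pad2-1*.

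**Figure D2:**
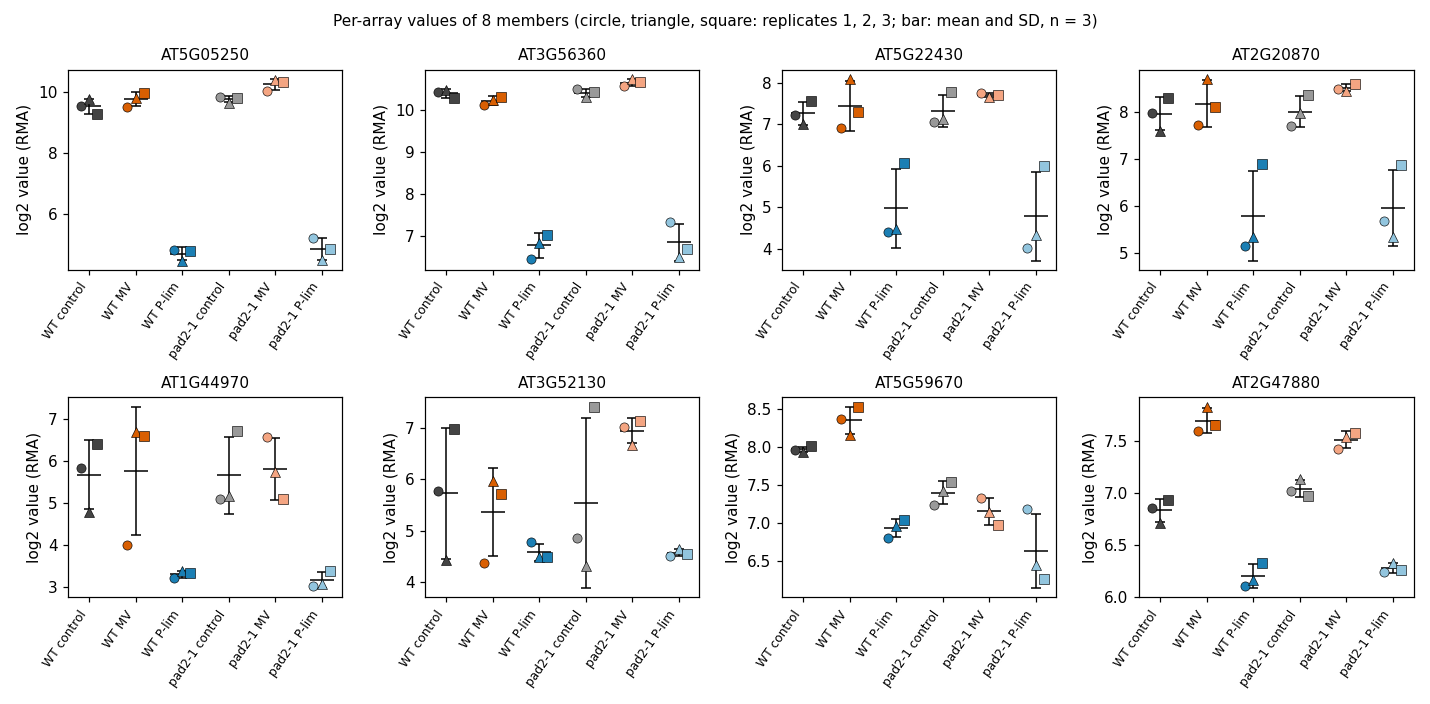
Each panel shows the RMA log2 value of 1 member on the 18 arrays, with circles, triangles and squares for replicates 1, 2 and 3 and black bars for the mean and SD (n = 3). AT5G05250 and AT3G56360 form a step between tight groups, AT5G22430 and AT2G20870 are higher on replicate 3 of both P-lim groups, and AT1G44970 and AT3G52130 spread widely under control and MV but not under P-lim.

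The cuticle and cell wall group had 6 named members. All were called lower under P-lim in both genotypes, where 4.28% of all probe sets were in WT and 5.23% in *pad2-1*. The rule chose them for this fall, so nothing is read from the count. AT5G22430 belongs to the Ole e 1 family, which is named for a pollen allergen. Its values were 7.23, 7.01 and 7.56 in WT control, 6.92, 8.1 and 7.31 under MV and 4.4, 4.47 and 6.07 under P-lim. In *pad2-1* they were 7.06, 7.13 and 7.77 under control, 7.75, 7.67 and 7.7 under MV and 4.03, 4.33 and 6.01 under P-lim. All P-lim arrays lay below all others, and replicate 3 was the highest of the P-lim arrays in both genotypes. The change was -2.28 ± 0.45 in WT and -2.53 ± 0.45 in *pad2-1*.

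AT2G20870, annotated as a cell wall protein precursor, followed the same arrays. Its P-lim values were 5.15, 5.34 and 6.9 in WT and 5.68, 5.33 and 6.87 in *pad2-1*, against 7.61 to 8.31 in WT control and 7.7 to 8.37 in *pad2-1* control. The pair of GDSL-type lipases did so too: *RXF26* read 3.68, 3.92 and 4.69 under P-lim in WT and 3.87, 4.02 and 4.44 in *pad2-1*. AT5G33370, known as cutin synthase 2, which polymerises cutin in the extracellular space, read 6.56, 6.68 and 7.2 in WT and 6.95, 6.72 and 7.12 in *pad2-1*. Replicate 3 was the highest P-lim array of both genotypes for all 4 genes. Changes were -2.17 ± 0.4 and -2.06 ± 0.4 for AT2G20870, -1.29 ± 0.27 and -1.46 ± 0.27 for *RXF26*, and -0.98 ± 0.18 in both genotypes for AT5G33370.

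These 4 genes also deviated together from their group means. The correlation of their deviations over the 18 arrays was 0.79 to 0.96 (median 0.88) among the 6 pairs. The 4 were picked from the 6 members of the cuticle and cell wall group with their values known, so a high value was built in. The points share the arrays and their normalization, and the value is given as a description. Among all pairs of the 42 members outside the tapetum-linked group below, the median was 0.09 and the range -0.75 to 0.96. These 42 include the 4 genes.

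The other 2 of this group were steadier. *EXPA8*, an expansin, which loosens cell walls, went from 9.76, 9.49 and 9.49 in WT control to 8.6, 8.7 and 8.78 under P-lim, and from 9.54, 9.08 and 9.33 to 8.48, 8.38 and 8.36 in *pad2-1*. The groups did not overlap, and the changes were -0.89 ± 0.1 and -0.91 ± 0.1. AT5G20740, of the invertase and pectin methylesterase inhibitor family, went from a mean of 8.26 ± 0.14 (SD, n = 3) to 7.65 ± 0.033 in WT and from 8.35 ± 0.17 to 7.64 ± 0.12 in *pad2-1*. Of the list of 32 expansins and xyloglucan endotransglucosylases, 14 were measured. *EXPA8* was the 1 member among them and the 1 called lower under P-lim in WT, where 3 were called higher, and in *pad2-1* 3 were lower and 6 higher.

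A group of 7 members with a wide spread between replicates was put together after the values were seen. Among these, AT1G44970 and AT4G16270 encode the class III peroxidases PRX9 and PRX40, which act on extensins in the tapetum wall. AT1G33430 encodes a galactosyltransferase needed for the pollen exine. AT3G07450, AT3G52130 and AT5G07230 encode small secreted proteins of the lipid transfer protein superfamily, and *LCR66* encodes a defensin-like secreted peptide. Their residual SD, the spread within groups in the fit, was 0.49 to 0.97, against a median of 0.228 over the 49 members and 0.091 over all probe sets. Such a spread was not particular to them: AT5G22430 had 0.66, AT2G20870 0.59 and 2 unnamed members 0.6 and 1.24, the last the widest of the 49.

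AT1G44970 had the largest fall of these and the one that was called in both genotypes. Its values were 5.84, 4.79 and 6.41 in WT control, 4.01, 6.7 and 6.61 under MV and 3.22, 3.38 and 3.33 under P-lim. In *pad2-1* they were 5.09, 5.18 and 6.72 under control, 6.57, 5.74 and 5.1 under MV and 3.03, 3.08 and 3.39 under P-lim. All 6 P-lim arrays were below the lower quartile of any array, so the fall of -2.37 ± 0.58 in WT and -2.50 ± 0.58 in *pad2-1* ended near the bottom of the scale.

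AT3G52130 showed how far control arrays differed. Its values were 5.77, 4.43 and 6.98 in WT control and 4.86, 4.32 and 7.41 in *pad2-1* control, whereas P-lim arrays read 4.77, 4.48 and 4.48 in WT and 4.51, 4.65 and 4.55 in *pad2-1*. Replicate 2 of both control groups was thus below all P-lim arrays of its genotype. Under MV it read 4.38, 5.97 and 5.72 in WT and 7.02, 6.67 and 7.13 in *pad2-1*. The P-lim differences of -1.15 ± 0.63 in WT and -0.97 ± 0.63 in *pad2-1* were not called.

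AT3G07450 had nearly the same pattern, with 4.82, 3.93 and 6.58 in WT control, 4.44, 3.95 and 6.88 in *pad2-1* control and 3.78 to 4.09 on the 6 P-lim arrays. In this group 1 member was called lower under P-lim in WT and 2 in *pad2-1*, where the second was AT4G16270 at -1.07 ± 0.33. The 7 members of the 49 that were called in neither genotype were 5 of this group and 2 unnamed ones. Without the group, 40 of the other 42 members were called lower in each genotype, where 4.28% of all probe sets were in WT and 5.23% in *pad2-1*. This alternative was added after the values were seen. The rule chose all 42 for this fall, so nothing is read from the count.

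The 7 genes were high and low on the same arrays. Their mean level was 4.96, 4 and 5.87 on WT control replicates 1, 2 and 3, 3.88, 5.98 and 5.26 on the WT MV replicates, and 4.38, 4.14 and 6.15 in *pad2-1* control. It was 6.29, 5.51 and 5.72 in *pad2-1* under MV and 3.67 to 3.84 on all P-lim arrays. The correlation of their deviations over the 18 arrays was 0.74 to 0.98 among pairs (median 0.85). Since the 7 were grouped after the values were seen and share the arrays, this is a description. The same pattern was seen in *AMS*, a bHLH transcription factor that is a main regulator of the tapetum and no member. Its signal was dim, at 3.19 to 4.48 on the 18 arrays, around the lower quartile of the arrays (3.8 to 3.91). *AMS* read 3.7, 3.27 and 4.29 in WT control, 3.6, 3.19 and 4.48 in *pad2-1* control and 3.38 to 3.53 under P-lim, and its deviations correlated with those of the 7 at 0.82 to 0.96. For the other 42 members this correlation ran from -0.38 to 0.8 (median 0.03), so the pattern was not confined to the 7. Over all other probe sets 95% of such correlations lay between -0.55 and 0.54. *AMS* was looked up after the values were seen and was the 1 gene with a named probe set of 19 anther genes listed then. Its own P-lim differences, -0.32 ± 0.27 in WT and -0.31 ± 0.27 in *pad2-1*, were not called. The part of tapetum tissue in the differences of these members was not tested.

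**Figure D3:**
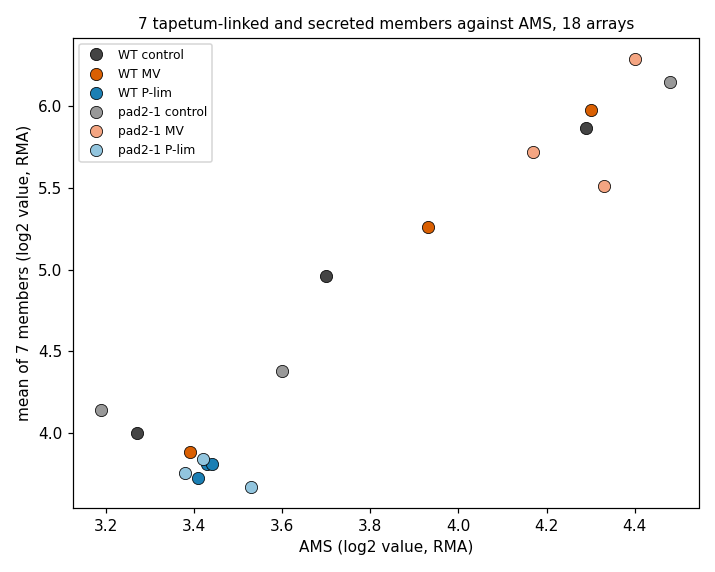
Each point is an array, with the log2 value of AMS on the horizontal axis and the mean log2 value of the 7 tapetum-linked and secreted members on the vertical axis. The 6 P-lim arrays cluster at the lower left together with WT control replicate 2, WT MV replicate 1 and pad2-1 control replicate 2, and the other arrays extend to a mean of 6.29.

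Among the members with roles in metabolism and translation, AT3G17770 encodes a dihydroxyacetone kinase. It went from 7.38, 7.35 and 7.18 in WT control to 6.04, 6.07 and 5.93 under P-lim, and from 7.55, 7.27 and 7.32 to 6.12, 6.24 and 6.23 in *pad2-1*. The changes were -1.29 ± 0.086 and -1.18 ± 0.086, with no overlap. *CDI*, a cadmium-induced gene of the nucleotide-diphospho-sugar transferase superfamily, read 9.58, 9.63 and 9.39 in WT control and 8.53, 8.48 and 8.49 under P-lim, and in *pad2-1* 10.02, 9.79 and 9.85 and then 8.44, 8.4 and 8.44. The means were 9.53 and 9.89 under control and 8.5 and 8.43 under P-lim. AT3G28500, a ribosomal protein of the acidic P2 type, had changes of -0.86 ± 0.19 and -0.63 ± 0.19. AT2G32160, annotated as a methyltransferase, had -0.88 ± 0.18 and -0.74 ± 0.18, and AT5G04080 -0.68 ± 0.12 and -0.72 ± 0.12. All 5 were called lower under P-lim in both genotypes (4.28% of all probe sets in WT and 5.23% in *pad2-1*), a fall for which the rule chose them.

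A further 5 members were signalling, regulatory or redox genes. These too were all called lower under P-lim in both genotypes (4.28% of all probe sets in WT and 5.23% in *pad2-1*), again by the choice of the rule. AT5G59670 encodes a receptor-like kinase with leucine-rich repeats, with changes of -1.03 ± 0.17 in WT and -0.77 ± 0.17 in *pad2-1*. AT1G07050, a CCT-domain protein, went from 9.46, 9.32 and 9.4 in WT control to 8.68, 8.83 and 8.69, and from 9.29, 9.3 and 9.25 to 8.55, 8.61 and 8.44 in *pad2-1*. AT1G22160, of the FCS-like zinc finger family, had -0.61 ± 0.12 and -0.82 ± 0.12, and AT1G29600, a CCCH-type zinc finger protein, -0.73 ± 0.14 and -0.64 ± 0.14. AT2G47880, a glutaredoxin of the plant-specific CC type, had -0.63 ± 0.076 and -0.76 ± 0.076.

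The named members lay on all 5 chromosomes, with 8 on chromosome 1, 4 on chromosome 2, 5 on chromosome 3, 1 on chromosome 4 and 7 on chromosome 5. No 2 of them were within 5 genes of each other. AT5G04080 was 6 genes from *BHLH101*.

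MV differences were bounded from below by the rule and open upwards. In WT they ranged from -0.38 to 1.2 with a median of 0.06, and in *pad2-1* from -0.38 to 1.57 with a median of 0.17. In WT 5 members were called higher (7.98% of all probe sets were) and 2 lower (5.56%), and in *pad2-1* 3 were higher (4.16%) and 1 lower (3.85%). AT2G47880 had the highest MV change of the named members in WT. It read 6.86, 6.71 and 6.93 in WT control, 7.6, 7.83 and 7.65 under MV and 6.11, 6.16 and 6.33 under P-lim, so that MV and P-lim arrays lay on opposite sides of the control. In *pad2-1* it read 7.02, 7.13 and 6.97 under control, 7.42, 7.54 and 7.58 under MV and 6.24, 6.33 and 6.26 under P-lim. The MV change was 0.86 ± 0.076 in WT and 0.47 ± 0.076 in *pad2-1*.

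The probe set 259632_at, with no gene name, moved the same way and further, by 1.2 ± 0.12 in WT and 1.24 ± 0.12 in *pad2-1* under MV and by -1.27 ± 0.12 and -1.15 ± 0.12 under P-lim. AT1G22160 rose under MV in WT by 0.57 ± 0.12 and had -0.05 ± 0.12 in *pad2-1*. AT1G07050 was lower under MV as well, by -0.33 ± 0.073 in WT and -0.26 ± 0.073 in *pad2-1*, less than its P-lim change in either genotype. The remaining calls under MV were unnamed. Without *pad2-1* control replicate 2 there were 2 calls in *pad2-1*, and without *pad2-1* P-lim replicate 1 there were 7.

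**Figure D4:**
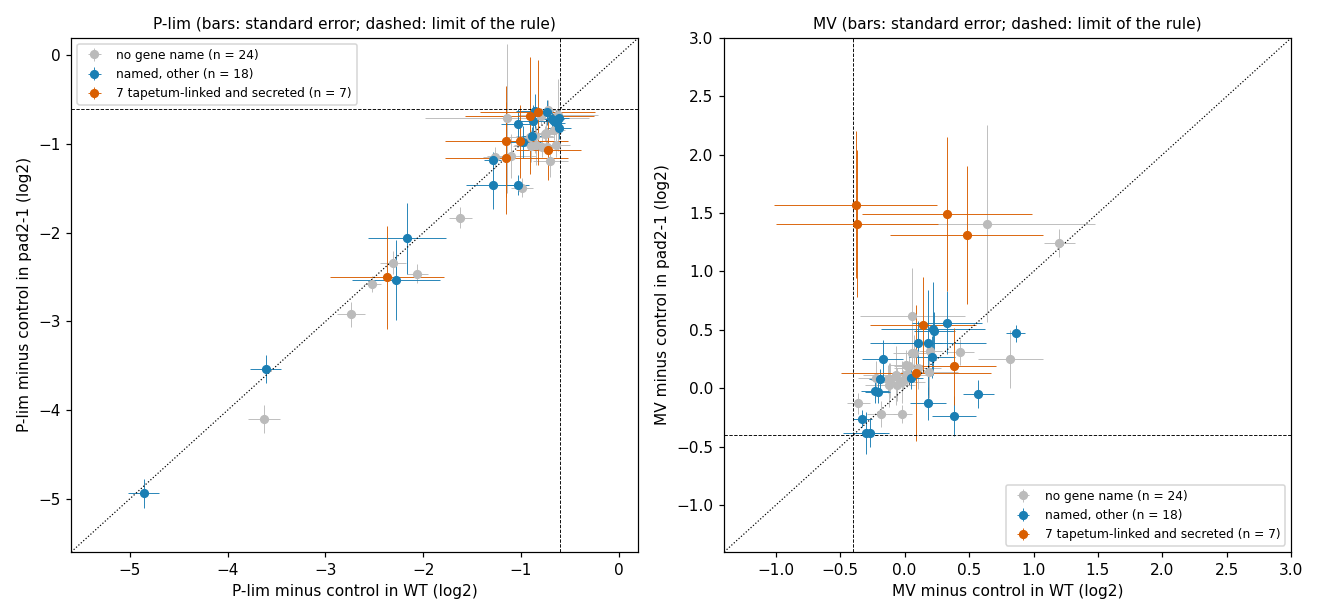
Each point is a member, with the change in WT on the horizontal axis and in pad2-1 on the vertical axis for P-lim (left) and MV (right), in log2 units with standard errors. Dashed lines are the limits of the rule and the dotted line marks equal change. P-lim changes follow the dotted line down to -4.86 and -4.94, and the MV changes of 4 tapetum-linked and secreted members lie above 1.3 in pad2-1 with wide errors.

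The rule set no limit on the difference between genotypes under MV or under P-lim, although both are built from the arrays that chose the members. Under MV, 11 of 49 members were called higher in *pad2-1* than in WT, where 2.34% of all probe sets were, and 3 lower, where 2.82% were. The median difference was 0.34 over the members and -0.02 over all probe sets. The 11 had differences of 0.33 to 0.7, and 9 of them had no gene name. All 11 were called lower under P-lim in both genotypes, as were 41 of the 49 members. The rule chose the members for this fall, so nothing is read from it. The count rested on single arrays: it was 14 in both directions together and 7 without WT MV replicate 1, 6 without WT MV replicate 2, 6 without *pad2-1* MV replicate 2 and 5 without *pad2-1* MV replicate 3.

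*CDI* was one of the named genes among the 11, with 9.18, 9.24 and 9.48 in WT under MV and 9.53, 10.03 and 10.04 in *pad2-1*. The groups did not overlap, and the difference was 0.57 ± 0.11 (limma, adjusted p = 0.0044). AT3G17770 was the other, with 7.16, 6.95 and 7.23 against 7.34, 7.53 and 7.51 and a difference of 0.35 ± 0.086 (limma, adjusted p = 0.0215). AT3G17770 lost the call (adjusted p = 0.0708 to 0.0964) in the fit of the compared groups alone and without WT MV replicate 2 or *pad2-1* MV replicate 2 or 3, and *CDI* did (adjusted p = 0.0571) in the fit of the compared groups alone. AT5G05250 had a difference of 0.49 ± 0.16 (adjusted p = 0.0964) and AT3G56360 one of 0.43 ± 0.16 (adjusted p = 0.15), so neither was called. The 3 iron genes left out by the rule were all called higher in *pad2-1* under MV, *BHLH101* by 0.98 ± 0.19 (limma, adjusted p = 0.00335), AT1G47400 by 0.83 ± 0.21 (adjusted p = 0.022) and *PYE* by 0.55 ± 0.12 (adjusted p = 0.00931). The differences under control had the same sign. They were 0.08 to 0.5 for the 11 members, 0.94 ± 0.21 for AT1G47400 (adjusted p = 0.00783), 0.59 ± 0.19 for *BHLH101* (adjusted p = 0.0723) and 0.2 ± 0.12 for *PYE* (adjusted p = 0.433), the last pair not called.

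The member with the largest called difference under MV was lower in *pad2-1*. The receptor-like kinase AT5G59670 read 8.37, 8.16 and 8.52 in WT under MV and 7.33, 7.15 and 6.98 in *pad2-1*, with no overlap and a difference of -1.19 ± 0.17 (limma, adjusted p = 0.000176). This call held in each fit with an array left out, at adjusted p-values up to 0.00194. AT2G32160 read 8.45, 8.16 and 8.68 against 7.62, 7.73 and 7.59, a difference of -0.78 ± 0.18 (limma, adjusted p = 0.0148), which was not called without WT MV replicate 3 (adjusted p = 0.0752) or without *pad2-1* MV replicate 3 (adjusted p = 0.0616). Both genes were also lower in *pad2-1* under control, by -0.57 ± 0.17 and -0.71 ± 0.18. Their deviations from the group means correlated at 0.93 over the 18 arrays. Pairs among the 42 members outside the tapetum-linked group ran from -0.75 to 0.96. Both genes lay furthest above their group mean on *pad2-1* P-lim replicate 1. The pair was picked with the values known, and the correlation is given as a description. The third member lower under MV was the unnamed probe set 261431_at, at -0.44 ± 0.11.

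**Figure D5:**
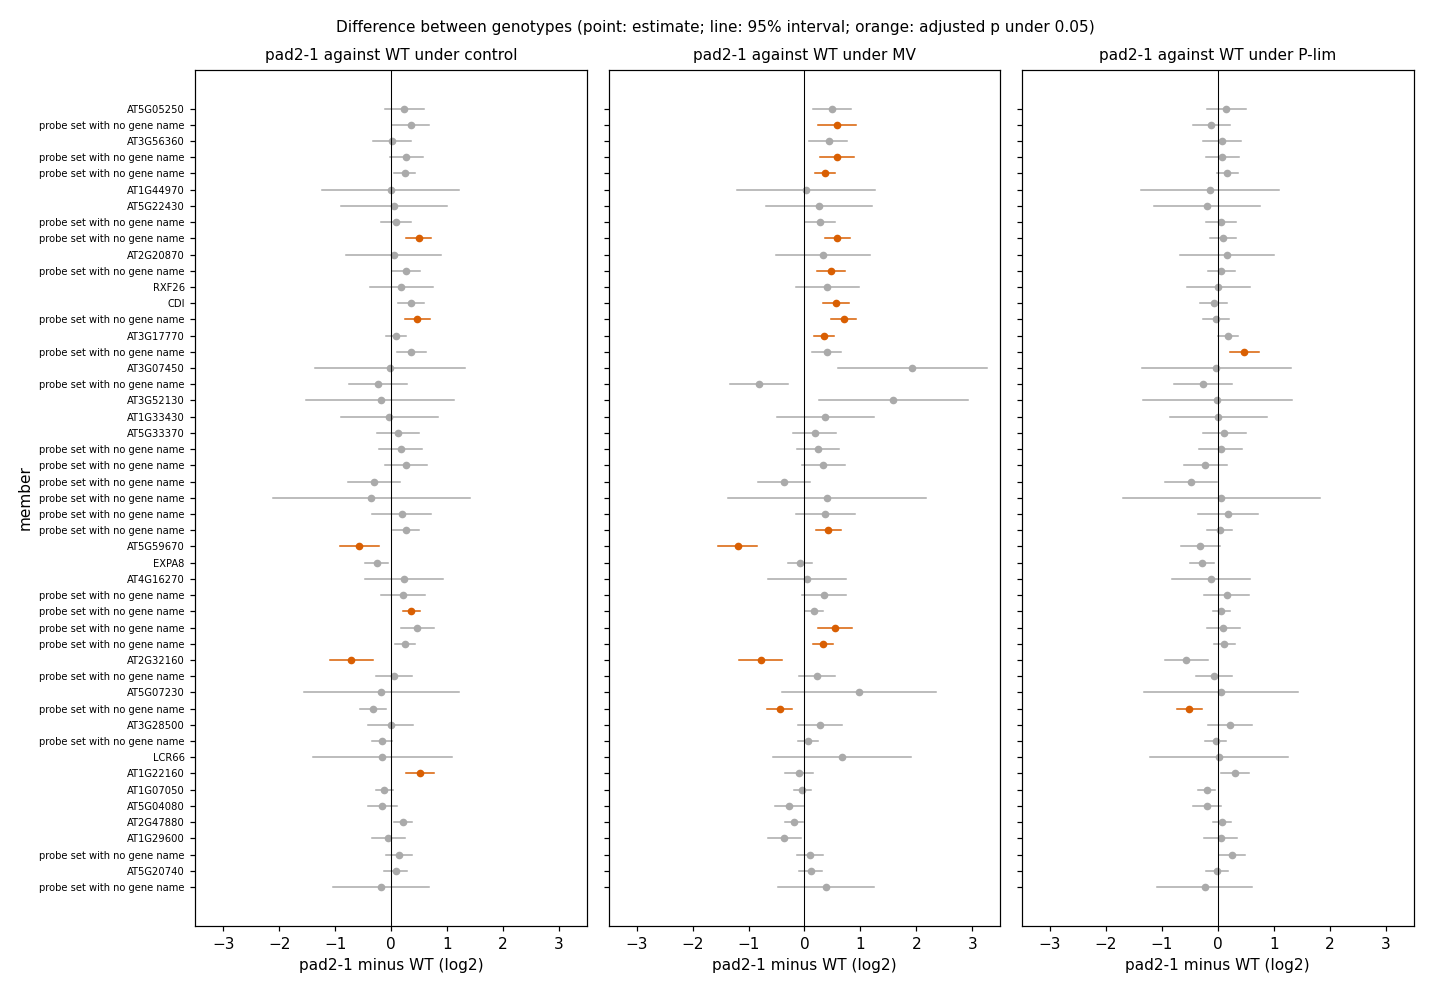
Each row is a member in the order of its P-lim fall, and points and lines give pad2-1 minus WT in log2 units with its 95% interval under control (left), MV (middle) and P-lim (right). Orange marks an adjusted p under 0.05, with 6 members under control, 14 under MV and 2 under P-lim.

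Under control, 4 members were called higher in *pad2-1* (3.66% of all probe sets) and 2 lower (2.69%), within the upper limit of the rule. AT1G22160 was the named one among the 4, at 0.51 ± 0.12, and AT5G59670 and AT2G32160 were the 2. Without WT control replicate 1 there were 3 calls, without WT control replicate 3 there were 2 and without *pad2-1* control replicate 2 there were 3.

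Under P-lim, 1 member was called higher (3.15% of all probe sets) and 1 lower (2.16%), shares near those of all probe sets. The higher one was 259632_at, which read 6.48, 6.3 and 6.54 in WT and 7.08, 6.91 and 6.75 in *pad2-1*, a difference of 0.47 ± 0.12 (limma, adjusted p = 0.0294). The lower one was 261431_at, which read 7.09, 6.88 and 7.04 against 6.76, 6.49 and 6.23, a difference of -0.51 ± 0.11 (limma, adjusted p = 0.00788). The call of 259632_at was lost (adjusted p = 0.0511 to 0.129) without any of the WT P-lim arrays or without *pad2-1* P-lim replicate 1 or 2. Without *pad2-1* P-lim replicate 1, 4 members were called, all lower in *pad2-1*. AT5G59670 and AT2G32160 had their highest P-lim value in *pad2-1* on that array, at 7.18 and 7.89 against 6.45 and 6.26, and 7.15 and 6.82, on the others.

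The interaction of genotype and P-lim, which asks whether the fall differed between genotypes, was called for 0 of 49 members (limma, where 0.185% of all probe sets were called higher and 0.541% lower). At an unadjusted p under 0.05 there were 4, all with the deeper fall in *pad2-1*, and 0 were called with trended and robust variance estimation. The rule itself required a fall in both genotypes, which limits such differences. For AT5G05250 the difference was -0.08 with a 95% interval of -0.57 to 0.41, and for AT3G56360 0.07 with -0.41 to 0.55. The named member among the 4 was *CDI*, at -0.43 with an interval of -0.76 to -0.1 (adjusted p = 0.313).

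The interaction of genotype and MV was also called for 0 of 49 members (limma, 0.589% of all probe sets higher and 1.06% lower), with 2 higher and 3 lower at an unadjusted p under 0.05 and 0 by trended and robust estimation. AT3G07450 had the widest difference, 1.95 with an interval of 0.06 to 3.84 (adjusted p = 0.386). AT1G22160 had -0.61 with -0.97 to -0.26 (adjusted p = 0.0858), AT5G59670 -0.62 with -1.11 to -0.13 (adjusted p = 0.254) and AT2G47880 -0.39 with -0.61 to -0.16 (adjusted p = 0.0915). Without *pad2-1* P-lim replicate 1 there were 2 calls, and without *pad2-1* control replicate 1, *pad2-1* control replicate 3 or *pad2-1* P-lim replicate 3 there was 1 each.

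Membership depended on single arrays for many members. Whichever array was left out, 26 members still met the rule, and 23 did not without at least 1 array. Leaving out WT control replicate 3 or *pad2-1* control replicate 3, the control arrays on which the tapetum-linked group was highest in each genotype, gave 41 members each, of which 38 and 39 were among the 49.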

How the data were processed

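The authors hybridised 1 biological replicate per array, normalized all CEL files together with RMA (version not given in the sources used here) and deposited the resulting log2 expression values. RMA equalises the distribution of values between arrays, so a shift of most transcripts cannot be seen, and it compresses low signals. The array images hold no read depth, and the number of arrays limits the precision. The values were used as deposited, without 64 control probe sets, for 22746 of 22810. Of these, 14016 are in the probe table, 13513 with 1 gene symbol and 503 with several, and 13436 were matched to a locus (TAIR10.1). Where a listed gene had several probe sets, the brightest was taken.

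limma (version 3.58.1, R 4.3.3) fitted 6 group means to 18 arrays. It gave 9 contrasts. P-values were adjusted after Benjamini and Hochberg across the whole table, and an adjusted p under 0.05 was a call. Members with a gene name are given by fall, list, genotype call, family and nearness to the limit. The members and lists (18 lists, 344 entries, 47 genes measured) were chosen with earlier results of these data known. The steps were tested on simulated data. Alternatives were other limits, the compared groups alone, the dimmer 50% left out, equal medians, medians of 3 arrays, trended and robust variance, a replicate block, each array left out and a minimum log2 fold change of 1.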

Additional observations from a re-analysis of the deposited data

How the results depend on the processing

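The 49 members became 63 and 35 with P-lim limits of -0.5 and -0.7, and 43 and 57 with MV limits of -0.3 and -0.5. They became 43 by medians of 3 arrays, 29 without the dimmer 50% of probe sets and 41 to 53 with an array left out. With a minimum log2 fold change of 1, 17 members were called lower under P-lim in WT and 24 in *pad2-1*, 1 was called under MV in each genotype, and for *pad2-1* against WT 0 under control, 1 under MV and 0 under P-lim. Without the dimmer 50%, 7 were called under MV in *pad2-1* and 2 in the MV interaction. Of the iron deficiency genes still fitted, 3 were lower in *pad2-1*. In the compared groups alone 1 was called in the MV interaction, and with trended and robust estimation 1 for *pad2-1* against WT under P-lim. Leaving out an array gave 37 to 41 and 38 to 42 members lower under P-lim in WT and *pad2-1*, and 5 to 8 and 2 to 7 called under MV. For *pad2-1* against WT it gave 2 to 9 under control, 5 to 17 under MV and 1 to 4 under P-lim, and for the interactions 0 under P-lim and 0 to 2 under MV. The iron list stayed at 4 and 5. In the compared groups alone 261431_at was not called under P-lim (adjusted p = 0.0519), and with trended and robust estimation neither was 259632_at (adjusted p = 0.0537). Over all probe sets, deviations of same-numbered arrays correlated at -0.185 to 0.177, and 0 of 15 group pairs had every correlation over 0.1. This does not settle whether same-numbered arrays were paired. Between WT control and *pad2-1* control these correlations were 0.08, 0.107 and 0.085. The mean of the 7 tapetum-linked and secreted members was lowest on replicate 2 and highest on replicate 3 in both control groups. Under MV the order of replicates differed between genotypes. With the replicate block 41 and 42 members were lower under P-lim, 7 and 3 called under MV, 5, 14 and 2 between genotypes under control, MV and P-lim, and 0 in the interactions. Signal near the lower quartile limits the size of falls: 9 members had a mean under 4 on the P-lim arrays.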
